A study of Mus musculus with 11 samples.

Results

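Cadherins are calcium-dependent adhesion molecules of the cell surface whose extracellular repeats bind cadherins on neighbouring cells, and whose intracellular tails connect adhesion to actin. Type I and type II classical cadherins bind catenins, non-clustered protocadherins of the delta families signal in part through actin regulators such as the WAVE complex, and the very large Fat, Dachsous and Celsr cadherins act in planar polarity, axon guidance and tissue growth. In the developing brain, combinations of type II cadherins and delta protocadherins often differ between neighbouring nuclei, and classical cadherins contribute to the segregation of neuronal groups and to synapse formation. The genes described here are 41 cadherin superfamily members chosen by name, out of 54752 genes in the count tables, and all 41 were found. They comprise 5 type I and 13 type II classical cadherins, 4 truncated, tip-link and other cadherins, 4 delta-1 protocadherins, 7 delta-2 and other protocadherins, 5 Fat and Dachsous genes and 3 Celsr genes. The clustered protocadherins are not among them.

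The study compared neurons of the primary sensory nuclei of the thalamus, namely the visual dorsolateral geniculate nucleus (dLG, 4 libraries), the somatosensory ventral posteromedial nucleus (VPM, 4 libraries) and the ventral division of the auditory medial geniculate nucleus (MGv, 3 libraries). All mice were Gbx2CreER-IRES-EGFP/+::R26lsl-tdTomato/+ on the ICR/CD-1 strain at postnatal day 0, so the nuclei shared genotype, strain and age. Tamoxifen-induced Cre from the Gbx2 locus labelled thalamic neurons with tdTomato, and labelled cells were sorted by fluorescence after dissection and papain dissociation. Each library came from tissue of 4 pooled brains, and only cells in which the Gbx2 locus had driven recombination were represented. In such bulk libraries fewer cells of a type and less RNA per cell cannot be told apart. The labels do not say whether the pools of different nuclei came from the same brains, so p-values measure the spread between these libraries.

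Libraries held 10175653 to 23559130 counts, with the MGv libraries shallower (up to 13164909 counts) than the others (at least 15867673 counts). Levels are given as counts per 1000000 counts of the library (CPM), and 3 counts, taken as the limit of detection, corresponded to 0.127 to 0.295 CPM. The libraries had the markers of excitatory thalamic neurons. The neuronal gene Stmn2 was at 4127 to 6127 CPM and the glutamate transporter Slc17a6 at 278 to 642 CPM, whereas Slc32a1 of inhibitory neurons, Sox10 of oligodendrocytes and Cldn5 of endothelium did not exceed 0.239 CPM in any library. Other genes of those lists were detected, such as Sst (up to 11.9 CPM) and Gad1 (2.72 CPM), Mbp (71.5 CPM) and Tek (5.49 CPM), and the lists summed to at most 21.0 (inhibitory neuron) and 7.79 CPM (endothelium). Gbx2, whose locus drives the Cre, was at 14.2 to 51.6 CPM in dLG and VPM and at 272 to 333 CPM in MGv. In 1 library of each nucleus (dLG 2, VPM 3 and MGv 1) the chaperone Hspa8 was at 3.05 to 5.56 CPM against 159 to 581 CPM elsewhere, and red blood cell transcripts (Hbb-bs at 347 CPM) stood out in dLG 3. Among VPM libraries, VPM 3 was the lowest for 24 of the 34 members tested, against 41.8% of all genes tested, and MGv 3 was the highest MGv library for 23 of 34, against 34.9% of all genes. Lists of other cell types moved with the nuclei in part. The summed level of 7 progenitor genes was 185 to 241 CPM in dLG, 122 to 146 CPM in VPM and 123 to 143 CPM in MGv, and that of 6 habenula genes was 6.21 to 9.5, 2.6 to 4.22 and 10.9 to 17.4 CPM. The summed level of 7 oligodendrocyte-lineage genes was 13.1 to 30.5 CPM in dLG, 33.7 to 43.9 CPM in VPM and 74.9 to 86.5 CPM in MGv, that of 7 astrocyte genes was 57.0 to 140 (dLG), 86.8 to 151 (VPM) and 76.2 to 192 CPM (MGv), and that of 9 dissociation-response genes was 472 to 715, 280 to 377 and 556 to 797 CPM. The part of these levels in the results was not tested.

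Most cadherins detected in these neurons differed between nuclei. Of the 41 members, 34 passed the filter on low counts, and the 7 that did not (Cdh1, Cdh5, Cdh19, Cdh23, Cdh26, Pcdh12 and Fat2) had at most 10 counts and 0.751 CPM in any library. Cdh5, the cadherin of vascular endothelium, had 0 counts in all 11 libraries. At an adjusted p under 0.1 in edgeR's quasi-likelihood test, 13 members differed between dLG and VPM (10.7% of the 15907 genes tested passed), 18 between dLG and MGv (16.1% of genes) and 17 between VPM and MGv (19% of genes). In a single test across the nuclei 23 members passed, against 24.2% of all genes. The filter keeps a gene that is high in only 1 nucleus, so these counts describe the 34 members that passed it and not all 41. The 41 members had a median exon length of 8797 bases, against 4042 bases for all genes tested. The shares of all genes given beside the members were not matched for length or level.

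The directions were uneven for dLG against VPM, where 3 members were higher in dLG (4.97% of genes) and 10 higher in VPM (5.74% of genes). Scaling by total counts in place of trimmed means gave 3 and 9, while the split over all genes went from 791 higher in dLG and 913 higher in VPM to 1075 and 685. Between dLG and MGv 6 members were higher in dLG (8.61% of genes) and 12 higher in MGv (7.49%), and between VPM and MGv the numbers were 9 (10.4%) and 8 (8.56%). The median size of the fitted log2 difference, regardless of sign, was 0.78, 1.03 and 1.01 over the 34 members for dLG against VPM, for dLG against MGv and for VPM against MGv, and 0.27, 0.32 and 0.36 over all genes tested. The signed medians were -0.28, -0.21 and 0.04 for the members and 0.00, 0.02 and 0.02 for all genes.

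Members higher in 1 nucleus than in each of the others, with both contrasts past the threshold, numbered 1 in dLG (Cdh10; 2.04% of all genes), 2 in VPM (Cdh7 and Pcdh18; 2.41%) and 6 in MGv (Cdh2, Cdh12, Cdh22, Pcdh1, Pcdh8 and Fat1; 3.66%). The MGv number was 3 without VPM 3 and 3 without MGv 3, and the VPM number was 4 without VPM 3 and 5 without MGv 3. In the reverse pattern, 6 members were lower in MGv than in both other nuclei (Cdh3, Cdh7, Cdh8, Cdh10, Cdh11 and Fat3; 5.22% of all genes), 7 were lower in dLG (Cdh4, Cdh6, Cdh22, Cdh13, Pcdh11x, Pcdh17 and Fat1; 2.18%) and 2 in VPM (Pcdh15 and Fat4; 1.97%). In all, 24 members differed in at least 1 contrast between nuclei (28.3% of all genes) and 10 tested members in none.

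**Figure D1:**
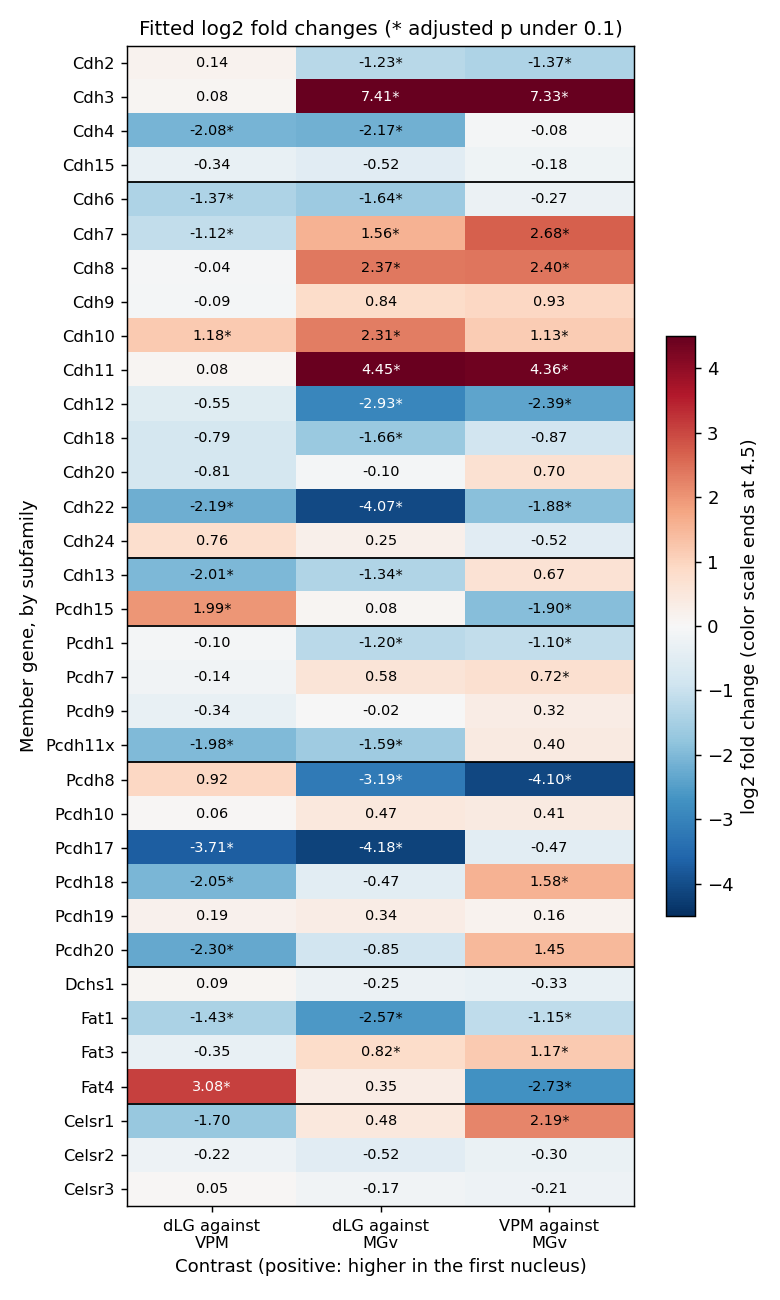
Fitted log2 fold changes of the 34 tested members (rows, grouped by subfamily) in the contrasts between nuclei (columns), where red is higher in the first nucleus, blue is higher in the second and an asterisk marks an adjusted p under 0.1. Cdh11, Pcdh17, Cdh22 and Pcdh8 reach values between 4.07 and 4.45 in size. The values of Cdh3 against MGv (7.41 and 7.33) are fitted over libraries with 0 counts and are no measure of its size, for which only the bound of at least 13.9-fold and 13-fold is given.

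Per kilobase of annotated exon, a scale on which genes can be compared, the delta-1 protocadherin Pcdh9 had the highest mean of the members in every nucleus, with 36.1 (dLG), 45.6 (VPM) and 36.6 (MGv) CPM per kb. Its range overlapped that of Cdh8 in dLG and that of Cdh6 in MGv. The members that followed it differed by nucleus. In dLG the next were Cdh8 (25.9 CPM per kb), Cdh6 and Cdh11 (both 11.0) and Pcdh7 (9.22). In VPM they were Cdh6 (28.5), Cdh8 (26.5), Pcdh17 (11.4) and Cdh13 (11.2), and the levels of Cdh6 and Cdh8 overlapped between libraries once divided by length. In MGv they were Cdh6 (34.2), Cdh12 (21.6), Pcdh8 (17.2), Pcdh17 (15.8) and Cdh2 (14.1). Cdh8 and Cdh11, near the top in dLG, were at 5.02 and 0.501 CPM per kb in MGv.

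Among type I classical cadherins, Cdh2 was higher in MGv than elsewhere, Cdh4 was lower in dLG than elsewhere, and Cdh3 was detected in dLG and VPM but not in MGv. Cdh2 (N-cadherin), the broadly expressed neural classical cadherin, had 51.4, 46.3, 46.1 and 50.4 CPM in dLG libraries 1 to 4, 51.7, 45.2, 29.3 and 49.7 CPM in VPM libraries 1 to 4 and 90.8, 116 and 136 CPM in MGv libraries 1 to 3. All MGv libraries lay above all others, while dLG and VPM overlapped. The log2 fold change was -1.23 (standard error, SE, 0.19; adjusted p = 0.00068) in dLG against MGv and -1.37 (SE 0.19; adjusted p = 0.000294) in VPM against MGv. Cdh2 is also expressed by neural progenitors and glia, whose markers did not all move alike. Of 5 tested progenitor genes, 2 were higher in dLG than in MGv and 1 was higher in MGv, with Sox2 at 158 ± 17.4, 73.6 ± 3.49 and 87.2 ± 12.6 CPM in dLG, VPM and MGv (mean ± SD) and Nes at 3.34 ± 0.768, 4.46 ± 1.22 and 9.17 ± 0.803 CPM. Of 6 tested astrocyte genes, 2 were higher in MGv than in dLG, with Slc1a3 at 6.35 ± 7.83, 7.15 ± 3.25 and 72.5 ± 23.8 CPM, while Fabp7 was at 65.5 ± 39.6, 64.5 ± 26.1 and 35.3 ± 36.1 CPM and passed no contrast. The part of such cells in the Cdh2 difference was not tested.

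Cdh4 (R-cadherin), a classical cadherin named after the retina, was at 3.17, 8.25, 1.2 and 4.92 CPM in dLG, 27.0, 20.6, 6.76 and 20.6 CPM in VPM and 18.3, 12.5 and 29.1 CPM in MGv. The dLG libraries were the low ones, although dLG 2 lay above VPM 3, both of which had little Hspa8. Cdh4 was 4.24-fold lower in dLG than in VPM (adjusted p = 0.021) and 4.5-fold lower than in MGv (adjusted p = 0.0152), and the first difference was -2.86 on the log2 scale without the low-Hspa8 libraries, against -2.08 with them. Cdh3 (P-cadherin) was a rare transcript at 1.34, 0.559, 1.91 and 0.954 CPM in dLG and 0.649, 1.6, 0.930 and 1.28 CPM in VPM, with 0 counts in all MGv libraries. Against a floor of 3 counts over the MGv group this was at least 13.9-fold higher in dLG and at least 13-fold higher in VPM (adjusted p = 0.00196 and 0.00236). Cdh15 (M-cadherin), a cadherin of muscle and cerebellum, ranged from 0.614 to 10.6 CPM and passed no test.

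Type II classical cadherins, which bind homophilically and to related type II partners, formed the largest group of members. Of the 13, 11 were tested, and 4 differed between dLG and VPM (1 higher in dLG and 3 in VPM), where 10.7% of all genes did. Between dLG and MGv 8 differed (4 in each direction), against 16.1% of all genes. Between VPM and MGv 6 differed (4 higher in VPM and 2 in MGv), against 19% of all genes. Their median log2 difference was -0.54, 0.25 and 0.70 in these contrasts. Cdh8 had 210, 258, 155 and 179 CPM in dLG, 187, 205, 226 and 204 CPM in VPM and 36.2, 37.0 and 43.3 CPM in MGv. Levels in dLG and VPM overlapped (log2 difference -0.04, SE 0.15; adjusted p = 0.934), and every library of both was above every MGv library, by 5.16-fold for dLG (log2 fold change 2.37, adjusted p = 2.99e-06) and 5.29-fold for VPM (2.40, adjusted p = 2.07e-06).

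Cdh11 had the same order of nuclei. It was at 102, 72.5, 93.6 and 125 CPM in dLG, 112, 98.1, 61.0 and 99.5 CPM in VPM and 5.26, 5.88 and 2.24 CPM in MGv. No MGv library came near the lowest of the others, and Cdh11 was 21.8-fold lower in MGv than in dLG (log2 fold change 4.45, SE 0.33; adjusted p = 2.92e-06) and 20.6-fold lower than in VPM (4.36, SE 0.33; adjusted p = 2.43e-06). Cdh11 is also known from mesenchymal cells and bone. The 5 genes of a meningeal fibroblast list summed to 0.602 to 1.95 CPM in dLG, 1.86 to 4.08 CPM in VPM and 0.194 to 1.05 CPM in MGv, and the part of such cells in the Cdh11 difference was not tested.

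Cdh12 was the mirror image of Cdh8 and Cdh11. It had 21.1, 26.8, 8.34 and 15.0 CPM in dLG, 27.9, 25.1, 33.4 and 17.6 CPM in VPM and 132, 139 and 137 CPM in MGv. All MGv libraries lay above all others, by 7.64-fold over dLG (log2 fold change -2.93, SE 0.31; adjusted p = 3.39e-05) and 5.24-fold over VPM (-2.39, SE 0.30; adjusted p = 0.00015), and dLG and VPM did not separate. In the annotation 3.14% of its exonic bases are shared with another gene on the same strand.

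Cdh6 and Cdh7 distinguished dLG from VPM. Cdh6 had 105, 131, 58.5 and 103 CPM in dLG, 325, 300, 184 and 219 CPM in VPM and 266, 316 and 344 CPM in MGv. Every dLG library was below every other library, with log2 fold changes of -1.37 (SE 0.23; adjusted p = 0.00219) against VPM and -1.64 (SE 0.24; adjusted p = 0.000552) against MGv, and VPM and MGv overlapped. Cdh7 was at 31.4, 18, 20.05 and 30.7 CPM in dLG, 59.6, 67.6, 38.1 and 53.0 CPM in VPM and 5.64, 7.81 and 12.1 CPM in MGv. The nuclei did not overlap at any step of the order VPM, dLG, MGv, and all contrasts passed (adjusted p = 0.0149 for VPM over dLG, 0.00321 for dLG over MGv and 6.7e-05 for VPM over MGv).

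Cdh10 was graded over the nuclei. It was at 64.9, 63.4, 56.4 and 64.9 CPM in dLG, 27.9, 26.4, 27.3 and 28.9 CPM in VPM and 8.79, 14.3 and 14.9 CPM in MGv, without overlap between nuclei. The log2 fold changes were 1.18 (SE 0.16; adjusted p = 0.000387) in dLG against VPM, 2.31 (SE 0.19; adjusted p = 5.25e-06) in dLG against MGv and 1.13 (SE 0.18; adjusted p = 0.000954) in VPM against MGv. It was the only member higher in dLG than in both other nuclei.

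The rarer type II cadherins Cdh22 and Cdh18 were highest in MGv. Cdh22 had 0.365, 1.85, 0 and 0.430 CPM in dLG, 3.94, 2.77, 1.92 and 3.95 CPM in VPM and 12.8, 8.25 and 13.8 CPM in MGv, with no overlap between nuclei. The difference of dLG from MGv (log2 fold change -4.07, adjusted p = 0.0015) was firmer than those of dLG from VPM (-2.19, adjusted p = 0.058) and VPM from MGv (-1.88, adjusted p = 0.0651). The last 2 were lost when single libraries were left out (dLG 1 or 4, or VPM 1, 2 or 4, for dLG against VPM, with adjusted p up to 0.155, and VPM 1, 2 or 3, or MGv 1 or 3, for VPM against MGv, up to 0.183). Without dLG 2, the dLG library with the most Cdh22, the log2 fold change was -3.54 against VPM and -5.40 against MGv. Cdh18 was at 1.64, 1.72, 1.09 and 0.764 CPM in dLG, 2.32, 3.25, 1.49 and 1.95 CPM in VPM and 2.63, 5.44 and 4.37 CPM in MGv, and only dLG against MGv passed (log2 fold change -1.66, SE 0.41; adjusted p = 0.0171). Cdh9 (0.790 to 4.63 CPM), Cdh20 (1.94 to 6.80 CPM) and Cdh24 (0.248 to 1.58 CPM) passed no contrast. Every dLG library was below every VPM library for Cdh20, with a log2 difference of -0.81 (adjusted p = 0.156) in the reported test. This difference was past the threshold in DESeq2 (adjusted p = 0.0772), limma voom (0.0793) and a fit of only these nuclei (0.0513). It also passed without MGv 2 (0.0769) or MGv 3 (0.0919). Without MGv 2, Cdh20 was also higher in VPM than in MGv (1.28, adjusted p = 0.0313).

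**Figure D2:**
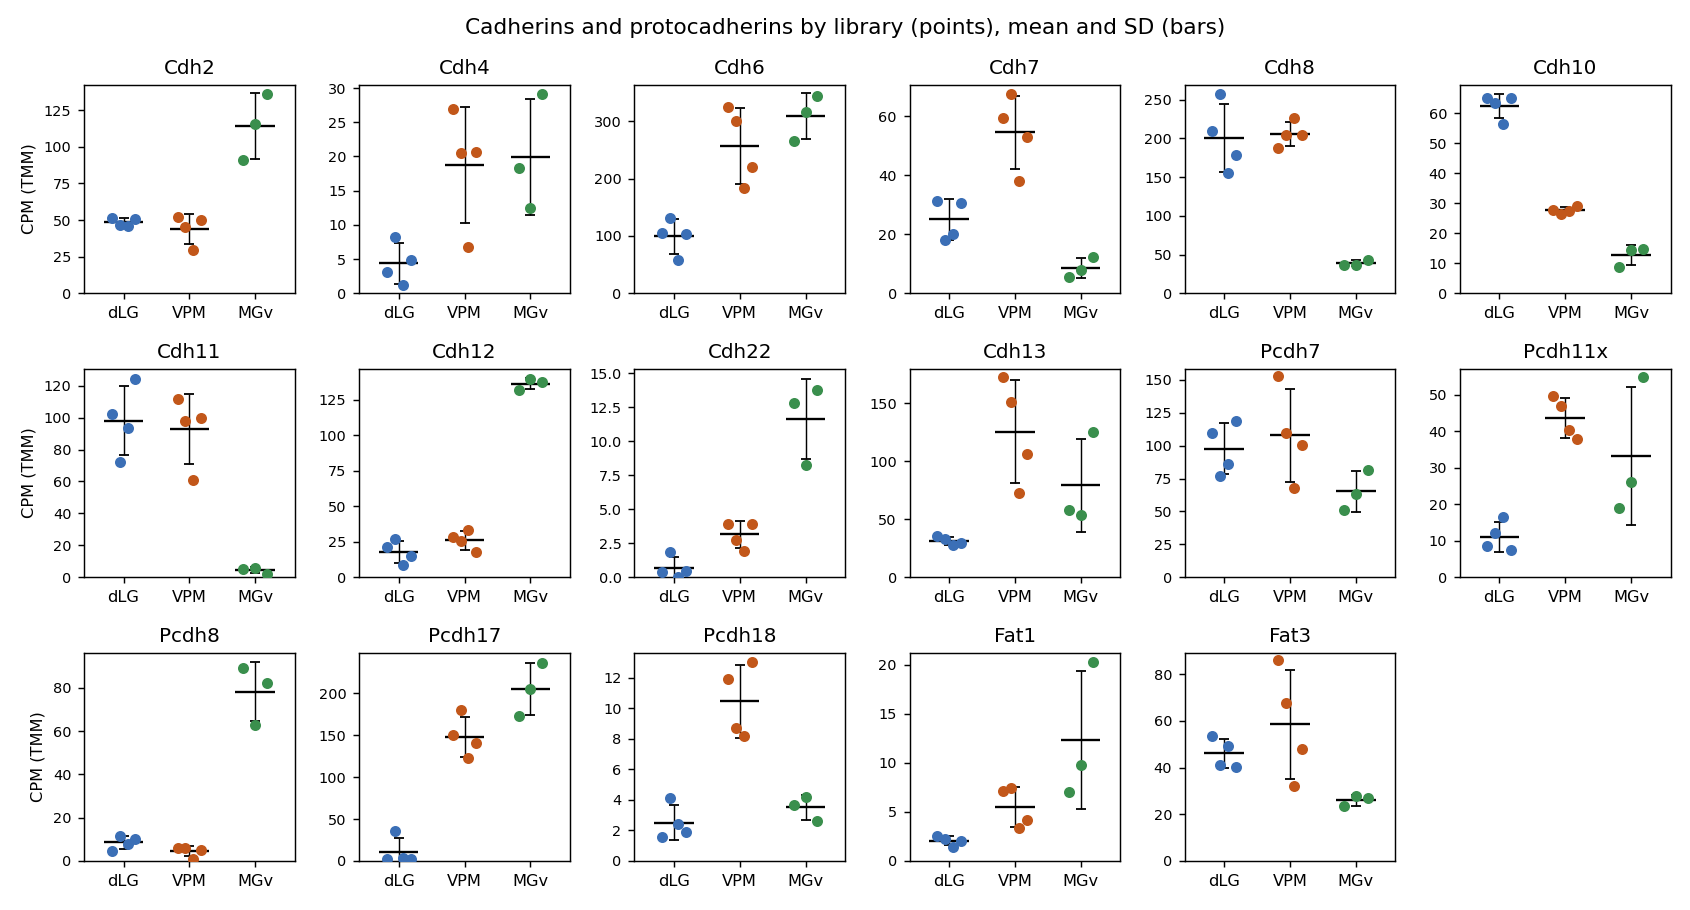
CPM of 17 members that differed in at least 1 contrast and had a mean of at least 10 CPM in 1 nucleus, with a point for each library, a horizontal line at the mean and bars of 1 SD (4 dLG, 4 VPM and 3 MGv libraries; each panel has its own linear scale from 0). The MGv points of Cdh2, Cdh12, Cdh22 and Pcdh8 sit above all others, those of Cdh7, Cdh8, Cdh10, Cdh11 and Fat3 below, and 1 dLG point of Pcdh17 is far above the other dLG points.

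The make-up of type II cadherin transcripts differed between nuclei. The 13 genes together had 61.8 ± 9.67 (dLG), 81.5 ± 9.05 (VPM) and 69.1 ± 6.18 (MGv) CPM per kb (mean ± SD), and the MGv sums overlapped those of both other nuclei. Cdh8 contributed 41.7% ± 3.96 of that sum in dLG, 33.1% ± 6.13 in VPM and 7.27% ± 0.406 in MGv, and Cdh6 contributed 17.4% ± 2.91, 34.5% ± 5.25 and 49.4% ± 2.01. The share of Cdh11 was 18.3% ± 5.06, 12.7% ± 2.21 and 0.741% ± 0.35, and that of Cdh12 was 4.41% ± 1.43, 5.13% ± 1.62 and 31.4% ± 2.15. Cdh10 held 10.2% ± 1.13 in dLG, 3.40% ± 0.435 in VPM and 1.80% ± 0.348 in MGv. The shares of Cdh8, Cdh11 and Cdh12 overlapped between dLG and VPM libraries.

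Ratios of counts within a library cannot be altered by scaling between libraries. The pairs given here join members that differed in opposite directions between dLG and MGv. Their ratios restate those differences and are no separate support. The log2 ratio of Cdh6 to Cdh8 was between -1.41 and -0.80 in dLG, between -0.30 and 0.80 in VPM and between 2.88 and 3.09 in MGv, so that the nuclei did not overlap. The log2 ratio of Cdh12 to Cdh11 was between -3.49 and -0.87 in the 8 dLG and VPM libraries, which overlapped, and between 4.57 and 5.94 in MGv.

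**Figure D3:**
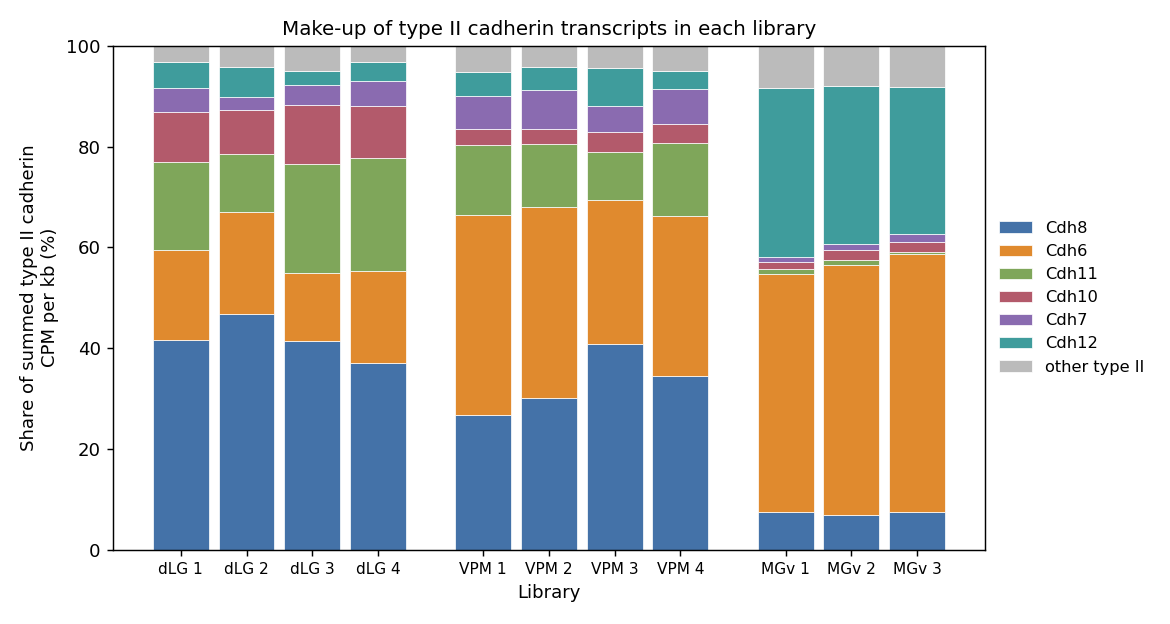
Share of each type II cadherin in the summed CPM per kb of the 13 type II genes, as a stacked bar for each library. Cdh8 (blue) and Cdh11 (green) shrink and Cdh12 (teal) and Cdh6 (orange) grow from the dLG and VPM libraries to the MGv libraries. The Cdh8 share varies from 26.7% to 40.9% between VPM bars and overlaps that of dLG (37.0% to 46.7%).

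Several of these genes are neighbours in the genome (GRCm38), with patterns that differed in part. Between positions 13028701 and 23474418 of chromosome 15 lie Cdh6, Cdh9, Cdh10, Cdh12 and Cdh18 in that order, with 3.56, 1.96, 1.43 and 0.960 Mb between consecutive genes. Cdh6 was lowest in dLG, Cdh10 was highest in dLG, Cdh12 was highest in MGv and Cdh9 passed no contrast. Cdh18 passed only in dLG against MGv, and Cdh6, Cdh12 and Cdh18 were all higher in MGv than in dLG. On chromosome 8, Cdh8 (99024471 to 99416471) and Cdh11 (102632095 to 102785642) are 3.22 Mb apart, and both were lower in MGv than in the other nuclei, whereas Cdh5 lies 1.32 Mb beyond Cdh11 and had no counts. Cdh7 on chromosome 1 (109982431 to 110140157), enriched in VPM, has Cdh19, at most 0.062 CPM, within 0.748 Mb.

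The truncated cadherin Cdh13 was low in dLG, and the tip-link cadherin Pcdh15 was low in VPM. Cdh13 (T-cadherin), which lacks a cytoplasmic tail and is held by a lipid anchor, was at 35.3, 32.7, 27.8 and 29.1 CPM in dLG, 173, 151, 72.9 and 106 CPM in VPM and 58.3, 54.0 and 125 CPM in MGv. All dLG libraries lay below all others, with log2 fold changes of -2.01 against VPM (SE 0.29; adjusted p = 0.000704) and -1.34 against MGv (SE 0.30; adjusted p = 0.00965). VPM and MGv overlapped (log2 difference 0.67, adjusted p = 0.178), and that contrast passed only without VPM 3 (0.86, adjusted p = 0.0551) or without MGv 3 (1.17, adjusted p = 0.0268) among fits that left out 1 library. Pcdh15, best known for the tip links of inner-ear hair cells, was at 7.31, 4.55, 8.44 and 9.31 CPM in dLG, 1.53, 2.34, 1.86 and 1.71 CPM in VPM and 6.39, 4.13 and 10.5 CPM in MGv. It was lower in every VPM library than elsewhere, 3.96-fold below dLG (adjusted p = 0.0019) and 3.74-fold below MGv (adjusted p = 0.00263). Its tip-link partner Cdh23 did not exceed 0.751 CPM.

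Delta-1 protocadherins, which carry a conserved tail motif that binds protein phosphatase 1, were high in all nuclei apart from Pcdh1 and, in dLG, Pcdh11x. Pcdh11x, on the X chromosome, was at 8.46, 12.1, 16.3 and 7.30 CPM in dLG, 49.6, 47.0, 40.4 and 38.0 CPM in VPM and 18.9, 26.2 and 54.7 CPM in MGv. All dLG libraries were below all others, by 3.95-fold against VPM (adjusted p = 0.0014) and 3.00-fold against MGv (adjusted p = 0.00576). Y-linked transcripts of 4 genes were at or near 0 (0.063 to 0.110 CPM) in dLG 1, dLG 3 and VPM 1 and between 20.4 and 109 CPM in the remaining ones. Pcdh11x was at 12.1 and 7.30 CPM in the dLG libraries with Y-linked transcripts (dLG 2 and 4) and at 8.46 and 16.3 CPM in those without, and the part of sex in its difference was not tested. Pcdh19, also X-linked, ranged from 62.8 to 114 CPM and passed no contrast. Every dLG library was above every MGv library for Pcdh19 (log2 difference 0.34, SE 0.16; adjusted p = 0.215).

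Pcdh1 had 2.19, 3.65, 2.89 and 3.48 CPM in dLG, 3.62, 4.59, 1.43 and 3.42 CPM in VPM and 8.34, 3.86 and 8.94 CPM in MGv. MGv 2 lay within the range of VPM, and both calls were weak (log2 fold changes -1.20 for dLG against MGv, adjusted p = 0.064, and -1.10 for VPM against MGv, adjusted p = 0.0806). They were lost without MGv 1 (adjusted p = 0.189 and 0.226) or MGv 3 (0.227 and 0.262), the first also without dLG 1, 3 or 4 and the second without VPM 1, 3 or 4. Pcdh7 was at 110, 76.7, 86.0 and 118 CPM in dLG, 153, 110, 67.9 and 100 CPM in VPM and 50.9, 63.3 and 81.7 CPM in MGv, with overlap between all nuclei. Its VPM against MGv difference (log2 fold change 0.72, SE 0.25; adjusted p = 0.075) was lost without VPM 1 (0.53, adjusted p = 0.174), VPM 2 (0.131), MGv 1 (0.233) or MGv 2 (0.162). An antisense gene covers 21.1% of Pcdh7 exonic bases, and since the library kit does not mark strand, reads of the overlapping bases cannot be assigned to either gene. Pcdh9, the most abundant member per length, ranged from 162 to 342 CPM with no difference past the threshold, the largest being -0.34 (SE 0.17; adjusted p = 0.278) in dLG against VPM.

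Delta-2 protocadherins, some of which recruit the WAVE actin regulators, included Pcdh17, low in dLG, and Pcdh8, high in MGv. Pcdh17 was at 2.37, 35.9, 4.03 and 2.43 CPM in dLG, 150, 180, 123 and 141 CPM in VPM and 174, 206 and 237 CPM in MGv. Every dLG library was below every other library, but dLG 2 was well above the other dLG libraries. The log2 fold change was -3.71 (SE 0.71; adjusted p = 0.00519) against VPM and -4.18 (SE 0.74; adjusted p = 0.00199) against MGv, and without dLG 2 these were -5.67 (adjusted p = 3.67e-08) and -6.12 (adjusted p = 2.12e-08). VPM and MGv differed by -0.47 (SE 0.68; adjusted p = 0.704). Among 8 genes of thalamic neurons, dLG 2 was the highest dLG library for Tcf7l2 (696 against 382 to 406 CPM), Foxp2, Gbx2 and Lhx2. It was the lowest for Rora (849 against 1334 to 1581 CPM), Lef1 and Slc17a6, and in between for Lhx9. The part of these differences in the Pcdh17 level of dLG 2 was not tested.

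Pcdh8 (paraxial protocadherin, also called arcadlin), an activity-regulated delta-2 member, followed Cdh12 in being high in MGv. It was at 4.63, 11.6, 7.79 and 10.2 CPM in dLG, 6.12, 5.80, 1.05 and 4.99 CPM in VPM and 89.1, 62.8 and 82.2 CPM in MGv. All MGv libraries were above all others, by 9.10-fold over dLG (log2 fold change -3.19, SE 0.41; adjusted p = 0.000184) and 17.2-fold over VPM (-4.10, SE 0.43; adjusted p = 3.5e-05). Another gene on the opposite strand covers 9.61% of its exonic bases. Of the 9 dissociation-response genes, which include activity-regulated ones, 5 were higher in MGv than in VPM and 4 higher in dLG than in VPM, and their part in the Pcdh8 differences was not tested.

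Pcdh18 marked VPM, at 1.58, 4.12, 2.45 and 1.91 CPM in dLG, 11.9, 8.74, 8.19 and 13.1 CPM in VPM and 3.68, 4.21 and 2.62 CPM in MGv. The VPM libraries were all above the others, with log2 fold changes of -2.05 for dLG against VPM (SE 0.32; adjusted p = 0.00114) and 1.58 for VPM against MGv (SE 0.35; adjusted p = 0.00904). Pcdh20 was near the limit of detection, at 0.670, 0.559, 0 and 0.191 CPM in dLG, 2.09, 2.77, 1.3 and 0.904 CPM in VPM and 0.526, 0.263 and 1.17 CPM in MGv. It was lower in dLG than in VPM (log2 fold change -2.30, adjusted p = 0.0917), and this was lost without dLG 3, dLG 4, VPM 1, VPM 2 or MGv 1 (adjusted p from 0.109 to 0.24). Pcdh10, a delta-2 protocadherin that links to the WAVE complex, ranged from 25.5 to 67.8 CPM with no contrast past the threshold. Without MGv 3, the MGv library with most Pcdh10 (61.9 CPM), its log2 difference was 0.96 in dLG against MGv (adjusted p = 0.014) and 0.91 in VPM against MGv (adjusted p = 0.0202).

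The sequence before the start of 3 of these genes is shown because they had the largest differences among members at 10 CPM or more with a single RefSeq promoter entry placed exactly at the annotated gene start. Entries were found for 28 of the 41 members, and each sequence gives the 250 bases upstream of the start, 5′ to 3′ on the gene's strand (RefSeq, GRCm38.p6), with motif matches in capitals.
Pcdh17, chr14:84443313-84443562, plus strand: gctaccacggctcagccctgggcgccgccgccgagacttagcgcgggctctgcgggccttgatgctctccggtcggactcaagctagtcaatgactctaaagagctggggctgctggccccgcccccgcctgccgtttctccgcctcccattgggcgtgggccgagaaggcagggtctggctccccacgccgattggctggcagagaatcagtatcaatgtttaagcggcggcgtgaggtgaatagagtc
Pcdh8, chr14:79771313-79771562, minus strand: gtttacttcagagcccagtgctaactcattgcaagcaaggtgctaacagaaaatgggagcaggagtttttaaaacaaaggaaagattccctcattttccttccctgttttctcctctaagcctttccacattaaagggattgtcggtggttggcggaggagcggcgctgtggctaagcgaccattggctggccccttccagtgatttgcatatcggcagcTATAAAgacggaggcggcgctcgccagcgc
Cdh8, chr8:99416472-99416721, minus strand: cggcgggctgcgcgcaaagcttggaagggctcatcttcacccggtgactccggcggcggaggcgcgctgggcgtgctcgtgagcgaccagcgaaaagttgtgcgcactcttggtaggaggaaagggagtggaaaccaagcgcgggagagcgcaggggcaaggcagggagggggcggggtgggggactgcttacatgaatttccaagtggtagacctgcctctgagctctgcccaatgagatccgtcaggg
Pcdh17, low in dLG, and Cdh8, reduced in MGv, have GC-rich windows (64.8% and 64.4% G or C, with 21 and 20 CpG dinucleotides), whereas that of Pcdh8, high in MGv, has 51.2% G or C, 11 CpG dinucleotides and the only motif match of these 3 windows, a TATA box (TATAAA). On either strand, TATAAA occurred in at least 1 window of 2 of the 28 members (Pcdh8 and Pcdh15) and in 12.4% of 32851 RefSeq windows of the same length. Members are counted as genes, while the percentages are of windows, of which a gene can have several. The other motifs searched were the homeodomain core TAATTA (Cdh7; 4.84% of windows), the TCF/LEF core CTTTGA (Cdh7 and Pcdh7; 13.8%) and the ROR half-site AGGTCA (Cdh18 and Fat2; 14.0%). TATAAA and TAATTA can overlap by their TA ends. These matches describe the letters of a short window only.

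Fat cadherins, giant molecules that act with Dachsous in tissue polarity and growth control, differed between nuclei in different directions. Fat4, the receptor for Dchs1, was at 11.2, 5.93, 8.93 and 7.11 CPM in dLG, 1.3, 0.995, 0.868 and 0.713 CPM in VPM and 6.31, 5.35 and 7.87 CPM in MGv. VPM was low in every library, 8.47-fold below dLG (log2 fold change 3.08, SE 0.30; adjusted p = 2.74e-05) and 6.66-fold below MGv (-2.73, SE 0.31; adjusted p = 6.7e-05), and dLG and MGv overlapped. Antisense genes cover 8.68% of its exonic bases. The summed level of the dissociation-response genes was also lowest in VPM, although the means of Atf3 and Ier2 were lowest in dLG. The part of these genes in the Fat4 difference was not tested. Dchs1, its ligand, ranged from 15.2 to 30.8 CPM and passed no contrast.

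Fat1 was at 2.5, 2.23, 1.47 and 2.05 CPM in dLG, 7.18, 7.40, 3.41 and 4.18 CPM in VPM and 6.99, 9.74 and 20.3 CPM in MGv. Every dLG library lay below the others (log2 fold changes -1.43 against VPM, adjusted p = 0.0298, and -2.57 against MGv, adjusted p = 0.000633). The VPM against MGv difference of -1.15 (adjusted p = 0.0607) was -0.58 (adjusted p = 0.382) without MGv 3 and was also lost without VPM 3 (adjusted p = 0.105) or VPM 4 (0.125). Fat3, linked to dendrite shape in retinal neurons, had 53.5, 41.2, 49.4 and 40.2 CPM in dLG, 86.2, 67.7, 32.3 and 48.0 CPM in VPM and 23.4, 27.8 and 27.0 CPM in MGv. MGv was below all other libraries, by 2.25-fold against VPM (adjusted p = 0.0107) and 1.77-fold against dLG (adjusted p = 0.0609), and the latter was lost without dLG 1 or 3 or any 1 MGv library (adjusted p from 0.118 to 0.178).

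Celsr genes, the seven-pass cadherins of planar polarity and axon tract formation, passed in 1 contrast, for 1 of the 3 genes, Celsr1. Celsr2 (9.97 to 22.4 CPM) and Celsr3 (10.3 to 22.3 CPM), the latter needed for thalamocortical tracts, passed no contrast. Celsr1 was at 1.58, 0.730, 1.53 and 1.53 CPM in dLG, 4.77, 4.85, 2.29 and 5.52 CPM in VPM and 0.150, 0.0878 and 2.72 CPM in MGv. MGv 1 and 2 had 2 and 1 counts and MGv 3 had 28, which placed MGv 3 above the lowest VPM library. The VPM against MGv log2 fold change was 2.19 (SE 0.79; adjusted p = 0.0867). It was 5.11 (adjusted p = 0.000613) without MGv 3, and it lost the call without MGv 1 (1.66, adjusted p = 0.221), MGv 2 (1.65, adjusted p = 0.192), VPM 1, 2 or 4 or dLG 1 or 4. All dLG libraries were below all VPM libraries, with a log2 difference of -1.70 (SE 0.67; adjusted p = 0.159) that was past the threshold in DESeq2 (adjusted p = 0.0632), limma voom (0.0321), a fit of only these nuclei (0.0167), without a count filter (0.00516), with a covariate for low Hspa8 (0.0719) and without MGv 3 (0.0138).

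Of 32 intracellular partners and polarity genes tested, 3 passed in dLG against VPM, 5 in dLG against MGv and 5 in VPM against MGv, where 10.7%, 16.1% and 19% of all genes did. Of 10 catenin-complex genes, all tested, 2 passed in each contrast with MGv, and in dLG against VPM the smallest adjusted p was 0.105 (Ctnnd2, delta-catenin). Pkp4, a p120-catenin relative, was higher in MGv than in dLG (log2 fold change -1.10, adjusted p = 0.00335) and VPM (-0.58, adjusted p = 0.09). Vinculin (Vcl) was higher in dLG than in MGv (0.97, adjusted p = 0.0412) and alpha-catenin Ctnna1 higher in VPM than in MGv (0.57, adjusted p = 0.079). Beta-catenin (Ctnnb1), the shared tail partner of classical cadherins, had 358 ± 20.8, 437 ± 72.9 and 368 ± 8.92 CPM in dLG, VPM and MGv (mean ± SD) and passed no contrast. The median size of the log2 difference over the 10 genes was 0.29 for VPM and dLG, 0.33 for MGv and dLG and 0.28 for MGv and VPM, near the 0.27, 0.32 and 0.36 of all genes.

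For the WAVE complex, 1 of 9 genes passed in 1 contrast, with Wasf1 lower in dLG than in VPM (log2 fold change -0.71, adjusted p = 0.051). Among 13 planar polarity genes and Fat partners, Ankrd6, a Dishevelled-binding protein, had 49.0 ± 10.6 CPM in dLG, 13.7 ± 3.66 CPM in VPM and 84.2 ± 3.84 CPM in MGv and passed every contrast (log2 fold changes 1.85, -0.78 and -2.63, adjusted p = 5.26e-05, 0.0216 and 3.63e-06). Prickle1, a cytoplasmic core polarity component, was lower in dLG than in VPM (-0.97, adjusted p = 0.032) and MGv (-0.90, adjusted p = 0.0467). Vangl1, a membrane component of the same pathway, was lower in MGv than in dLG (1.47, adjusted p = 0.00556) and VPM (1.28, adjusted p = 0.0134), and its paralogue Vangl2 was higher in MGv than in VPM (-0.68, adjusted p = 0.0212). The remaining 9 of the 13 passed no contrast.

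**Figure D4:**
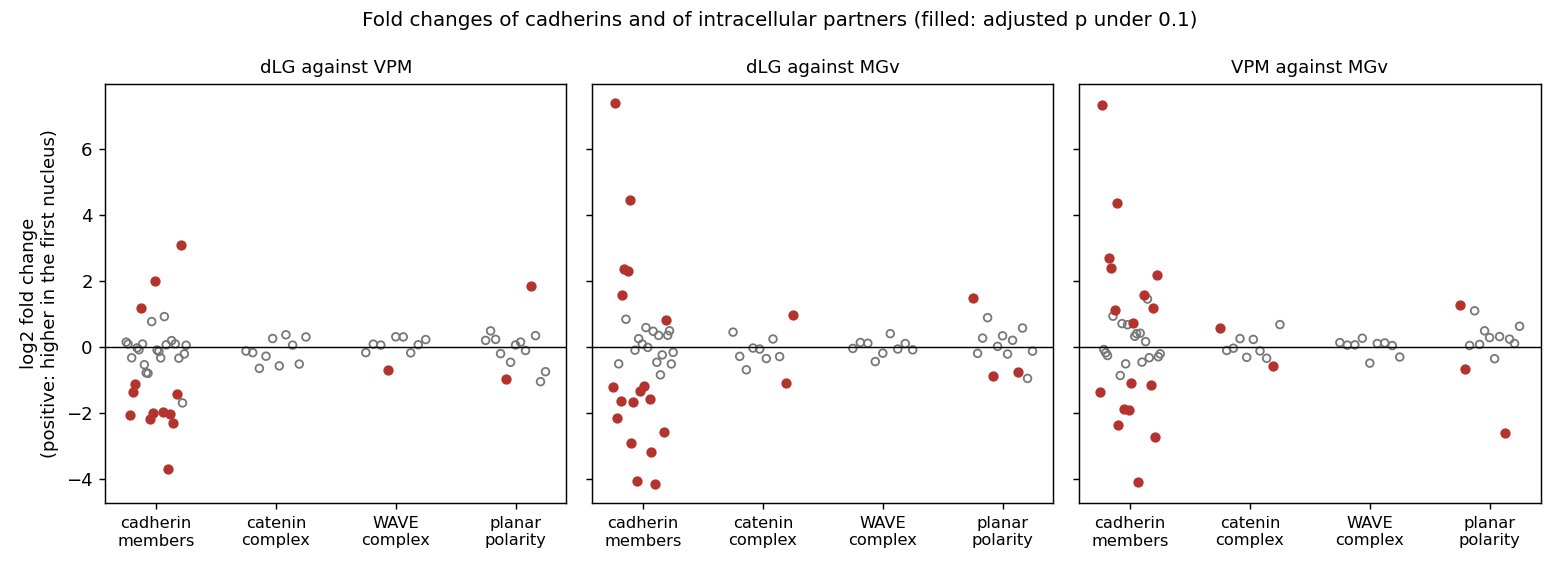
Fitted log2 fold changes in each contrast for the 34 tested members and for 10 catenin-complex, 9 WAVE-complex and 13 planar polarity genes, with each gene as a point that is filled where the adjusted p was under 0.1. The members other than Cdh3 spread from -4.18 to 4.45, and catenin and WAVE genes from -1.10 to 0.97. The topmost point in the contrasts with MGv is Cdh3, fitted over MGv libraries with 0 counts, and its height is no measured fold.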

How the data were processed

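Libraries were made from RNA of the sorted neurons with a SMARTer kit for low input, which does not mark strand, and sequenced as single reads of 50 bases. The deposited values were raw read counts per gene, which the authors made by trimming reads (Trim Galore 0.6.1, cutadapt 2.3), aligning them with STAR 2.7.0d to GRCm38 and assigning them to Ensembl genes with featureCounts (Subread 1.6.4). The strand setting of the counting and the treatment of reads with several alignments were not stated in the sources used here.

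Counts were analysed in R 4.3.3 with edgeR 4.0.16: filterByExpr left 15907 genes, libraries were scaled by trimmed means (TMM), and quasi-likelihood tests in 1 model of all 11 libraries were adjusted by Benjamini-Hochberg over all genes tested, two-sided, at an adjusted p under 0.1. Standard errors were derived from the fold change and its F value, and CPM values were TMM-scaled. CPM per kb used the annotated exon length. The procedure was tested on simulated data. Alternatives were DESeq2 1.42.0, limma 3.58.1 (voom), other scalings, filters and thresholds, the replicate number as a block, depth thinning and leaving out libraries. All 41 members are named. Those called in a contrast are given by library where the highest nucleus averaged at least 1 CPM, the others by range. The members, gene lists and tests were chosen with earlier results of these data known, and the TATA box was added to the motifs after the promoter windows were read. Protein sequences were not used here.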

Additional observations from a re-analysis of the deposited data

Results flagged for a closer look

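In 68 sets of 4 libraries (34 members in dLG and in VPM), a library stood apart from the other libraries of its nucleus by Dixon's test in 6, and chance gives about 5% of such sets. Of these, 3 concern VPM 3, which had little Hspa8: Pcdh8 at 1.05 CPM against 4.99 to 6.12 CPM in the other VPM libraries, Celsr1 at 2.29 against 4.77 to 5.52 CPM, and Celsr2 at 10.6 against 19.1 to 19.6 CPM. In dLG 2, also low in Hspa8, Pcdh19 was at 114 CPM against 76.7 to 80.8 CPM in the other dLG libraries and Celsr1 at 0.730 against 1.53 to 1.58 CPM. Cdh10 was at 56.4 CPM in dLG 3 against 63.4 to 64.9 CPM, a small deviation within a tight group. The groups of 3 MGv libraries were not examined in this way. The part of library quality in these deviations was not tested.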

How the results depend on the processing

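Of 48 fold changes past the threshold, 39 kept direction and call in every setting that gave a value, 9 lost the call somewhere and 0 reversed. The 9 were Cdh22 (dLG against VPM, VPM against MGv), Pcdh1 (both contrasts with MGv), Pcdh7, Fat1 and Celsr1 (VPM against MGv), Pcdh20 (dLG against VPM) and Fat3 (dLG against MGv). Beside leaving out libraries, a threshold of 0.05 lost all 9, the replicate block 7, a fit of only the nuclei compared 4, total-count scaling 2, and DESeq2 and limma voom 1 each. A filter of 10 counts in every library gave a value for 41. Members enriched in MGv numbered 3 at a threshold of 0.05 and 3 with the replicate block, against 6, and 3 to 6 when 1 library was left out. Members enriched in VPM numbered 4 without a count filter, against 2, and 2 to 5 when 1 library was left out; all other counts of members stayed within 1.5 times. Deviations of same-numbered libraries correlated between -0.20 and 0.48 (mean 0.02, 10 pairs), and those of other pairs between -0.31 and 0.27 (mean -0.005, 30 pairs). The highest value was that of dLG 4 and VPM 4, and so few pairs cannot tell whether same-numbered libraries shared brains. With the replicate block 12, 17 and 12 members differed in place of 13, 18 and 17. Over all genes, calls between dLG and VPM went from 1704 to 1093 without VPM 2, 1101 without VPM 1 and 2618 without the low-Hspa8 libraries. Genes enriched in dLG went from 325 to 508 without the low-Hspa8 libraries, in VPM from 384 to 249 at a threshold of 0.05 and 237 without VPM 2, and in MGv from 582 to 385 at that threshold and 363 without MGv 3. Apart from the stricter threshold, the cause was not tested. The 3 shallower MGv libraries limit what can be said of members near 0.3 CPM.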

Other observations

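Other cadherin superfamily genes outside the 41 were also measured. Of 9 such genes, 7 were tested, and 3 passed in dLG against VPM (2 higher in dLG, 1 in VPM), 6 in dLG against MGv (2 and 4) and 2 in VPM against MGv (1 in each direction), where 10.7%, 16.1% and 19% of all genes passed. Clstn1 (calsyntenin 1), which links kinesin to axonal cargo, had 54.5 ± 29.1 CPM in dLG, 191 ± 48.7 CPM in VPM and 210 ± 63.7 CPM in MGv (mean ± SD), with log2 fold changes of -1.81 for dLG against VPM (adjusted p = 0.00278) and -1.94 for dLG against MGv (adjusted p = 0.0015). Its relative Clstn2, a synaptic calsyntenin, had the opposite order, with 21.4 ± 5.36 CPM in dLG, 12.2 ± 3.01 CPM in VPM and 12.4 ± 1.85 CPM in MGv (0.81, adjusted p = 0.0507, and 0.78, adjusted p = 0.0652, for dLG against VPM and MGv). Clstn3 passed no contrast (57.3 ± 12.4, 69.6 ± 11.3 and 66.4 ± 10.8 CPM).

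The desmosomal cadherin Dsc2 had 1.76 ± 1.2 CPM in dLG, 0.535 ± 0.403 CPM in VPM and 7.78 ± 1.72 CPM in MGv and passed every contrast (log2 fold changes 1.70, -2.13 and -3.83). Ret, a receptor tyrosine kinase with cadherin-like repeats, was lower in MGv (7.75 ± 1.16 CPM) than in dLG (14.5 ± 2.29 CPM) and VPM (15.3 ± 4.90 CPM), with adjusted p = 0.0487 and 0.031. Cdhr1, a photoreceptor cadherin, was lower in dLG (7.75 ± 3.95 CPM) than in MGv (14.4 ± 1.23 CPM; adjusted p = 0.0834).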
